A study of Mus musculus with 12 samples.

Results

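Anti-GBM glomerulonephritis was compared with the normal state in kidneys that lack Smad3. The 4 libraries compared were chosen by their source labels, 2 from Smad3 knockout (KO) mice with anti-GBM glomerulonephritis and 2 from untreated Smad3 KO mice, out of 12 libraries in the series. The series holds WT and Smad3 KO mice, all C57BL/6J, each as normal, with anti-GBM glomerulonephritis at day 10, or with unilateral ureteral obstruction (UUO, ligation of the left ureter) at day 5. Whole-kidney RNA was depleted of ribosomal RNA, and RNA longer than 150 bp was sequenced. Reads were counted on 42452 putative noncoding transcripts, 10852 with a match in a sequence database and 31600 predicted without one.

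Per the labels' protocols, mice with glomerulonephritis had an immunization of sheep IgG with Freund's complete adjuvant, and 5 days later received sheep globulin against mouse glomerular basement membrane (GBM) at 60 μg/g body weight. The normal groups are labelled untreated, so the nephritogenic globulin, the IgG and the adjuvant cannot be told apart as sources of a difference. The protocol for UUO names animals of both genders, and the ages are not given in the sources used here. Each title carries its own number, and nothing else shows that the replicates are separate mice, so p-values measure only the spread between these samples. The knockout could not be checked, because Smad3 and other whole protein-coding mRNAs were not analysed here.

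Smad3 relays transforming growth factor β (TGF-β) signals from the receptors to the nucleus, where it acts as a transcription factor on matrix genes among others. In experimental anti-GBM disease, antibody bound to the glomerular filter draws in leukocytes, and the injury can go on to scarring. Long noncoding RNAs, primary transcripts of microRNAs and transcripts of endogenous retroviruses all lie among the RNA that such libraries hold.

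KO anti-GBM 1 and 2 held 5237456 and 6944047 counted reads, and KO normal 1 and 2 held 6096284 and 5961009. After thinning to 4595261 reads, the smallest total of the series, 17822 and 24063 transcripts were listed in the KO anti-GBM libraries and 29147 and 26954 in the KO normal libraries. Breadth of coverage, the covered length divided by that of randomly placed reads, was 0.338 in KO anti-GBM 1, 0.636 in KO anti-GBM 2, 0.782 in KO normal 1 and 0.744 in KO normal 2. KO anti-GBM 1 stood apart from its replicate. The 290-base transcript ncRNA_aligned_7824 took 36.35% of its reads against 5.992% in KO anti-GBM 2, and the 16248-base ncRNA_aligned_3554 took 3.03% against 16.95%. The Pearson correlation of log2 values between replicates was 0.658 for KO anti-GBM and 0.877 for KO normal, over transcripts with 10 or more reads.

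In Smad3 KO kidney, 12 of 24816 transcripts tested were higher with anti-GBM glomerulonephritis and 1 was lower (edgeR quasi-likelihood test, Benjamini-Hochberg adjusted p under 0.05). These are 0.0484% and 0.00403% of the transcripts tested. The 12 rose between 8.08-fold and at least 57.8-fold. They were a transcript holding a retroviral packaging signal, 7 transcripts matched to cDNA clones, 3 long noncoding RNA entries and 1 predicted transcript. The transcript that fell, ncRNA_aligned_931, was 49-fold lower. Before adjustment, p was under 0.05 for 661 transcripts that were higher (2.66%) and 1510 that were lower (6.08%). Group values did not overlap for 2896 transcripts higher (11.7%) and 7093 lower (28.6%). All 13 called transcripts were among those without overlap. Leaving out KO normal 1 left no call by edgeR, with 276 transcripts higher and 864 lower before adjustment (p under 0.05). In whole kidney, more cells of a type and more RNA per cell cannot be told apart.

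**Figure D1:**
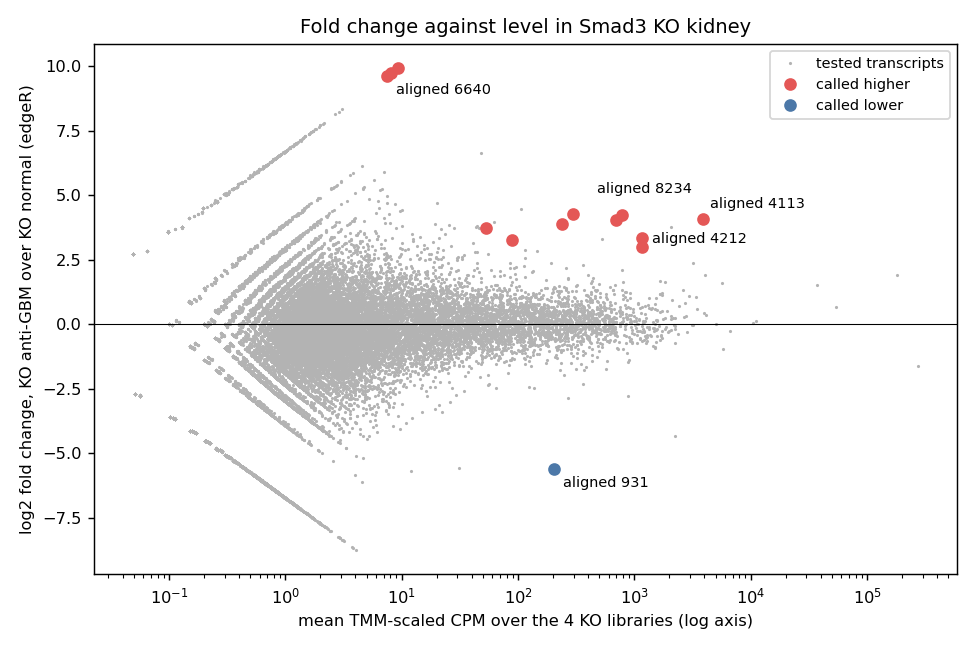
Fold change against level for the 24816 transcripts tested, with log2 fold change of KO anti-GBM over KO normal (edgeR) on the vertical axis and mean TMM-scaled CPM over the 4 KO libraries on a log horizontal axis (those with no read in these 4 libraries are not drawn). Red points are the 12 transcripts called higher and the blue point is ncRNA_aligned_931, called lower; the 3 red points near the top had no read in either KO normal library, so their height depends on the prior count of the fit.

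The packaging signal is the RNA element by which a gammaretrovirus directs its genome into particles, and the mouse genome carries endogenous copies. ncRNA_aligned_8234 (1971 bases), matched to a gammaretrovirus core encapsidation signal, stood at 1798 and 1175 CPM (read counts scaled by library total and the TMM method) in KO anti-GBM 1 and 2, against 48.1 and 109 CPM in KO normal 1 and 2. Both nephritic KO kidneys lay far above both normal ones. The log2 fold change was 4.24 ± 0.52 (SE, n = 2 and 2; edgeR adjusted p = 0.000638). In WT mice the same transcript stood at 1513 and 773 CPM with anti-GBM and 366 and 372 CPM in normal kidney, a log2 fold change of 1.63 ± 0.47 that was not called (adjusted p = 0.301). Reads of near-identical retroviral copies may have been split between transcripts or dropped by unique mapping. The other packaging-signal transcript tested was not called.

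The most abundant of the called transcripts was ncRNA_aligned_4113 (2779 bases, cDNA AK133569). It stood at 6086 and 8647 CPM in the KO anti-GBM libraries and at 346 and 515 CPM in the KO normal libraries. The groups were wide apart, and the log2 fold change was 4.10 ± 0.53 (SE; adjusted p = 0.00129). Another 3 transcripts with nearby running numbers, for which the tables give no coordinates, were called too. ncRNA_aligned_4116 (10812 bases, cDNA AK157581) stood at 2396 and 1762 CPM against 260 and 254 CPM, and ncRNA_aligned_4112 (1604 bases, cDNA AK028107) at 171 and 151 CPM against 16.9 and 16.1 CPM. Their log2 fold changes were 3.02 ± 0.50 (adjusted p = 0.00934) and 3.29 ± 0.55 (adjusted p = 0.00961). ncRNA_aligned_4115 (3033 bases, a mouse lincRNA entry) had 49 and 100 reads in the KO anti-GBM libraries and none in either KO normal library. Set against a floor of 3 counts over the group, that is at least 50.3-fold higher (adjusted p = 0.0385). Its reads covered 15.4% and 15% of the transcript in the KO anti-GBM libraries. The call of ncRNA_aligned_4115 was kept in 7 of 12 fits that left out 1 library. It was lost without any 1 of the 4 libraries compared, and without WT anti-GBM 1. The calls of ncRNA_aligned_4116 and ncRNA_aligned_4112 were each kept in 9 of 12 such fits.

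A pair of transcripts shared the match to cDNA AK037011. ncRNA_aligned_8284 (847 bases) stood at 998 and 1623 CPM with anti-GBM against 57.3 and 103 CPM in normal KO kidney, and ncRNA_aligned_10503 (829 bases) at 480 and 659 CPM against 23.2 and 35.6 CPM. Neither pair of groups overlapped, with log2 fold changes of 4.04 ± 0.57 (SE; adjusted p = 0.00229) and 4.28 ± 0.56 (adjusted p = 0.000638). Since they match the same clone, they may not be independent. ncRNA_aligned_11888 (5688 bases, cDNA AK161191) stood at 291 and 608 CPM against 25.0 and 35.4 CPM, a log2 fold change of 3.90 ± 0.57 (adjusted p = 0.00228). Its reads covered 17.3% and 12.2% of the transcript in the KO anti-GBM libraries and 33.8% and 20.1% in the KO normal libraries, so the values come from a small part of it. ncRNA_aligned_4116 was likewise covered over 33.2% and 31.5% of its length in the KO anti-GBM libraries.

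The 8 transcripts described so far were grouped after their values were seen, as called in KO, at a lower mean in KO normal than in WT normal by 2 times or more, and with a positive fold change in both genotypes. Among the 7 with reads in every KO normal library, the WT normal mean was 2.81 to 6.13 times the KO normal mean, a difference that was not tested here. With anti-GBM they stood 8.08 to 19.4 times the normal mean in KO and 2.33 to 3.1 times in WT. The nephritic means were closer, at 1 to 1.41 times the WT anti-GBM mean in KO. A low KO normal mean and a rise in KO were conditions of the choice, so these ratios are partly fixed by it. None of the 8 was called for a difference in response between genotypes. The fitted KO change was the larger one for all 12 transcripts that rose, which their choice by the KO change favours. WT anti-GBM 1 lay above WT anti-GBM 2 in 8 of 8, by 1.96 to 3.01 times.

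**Figure D2:**
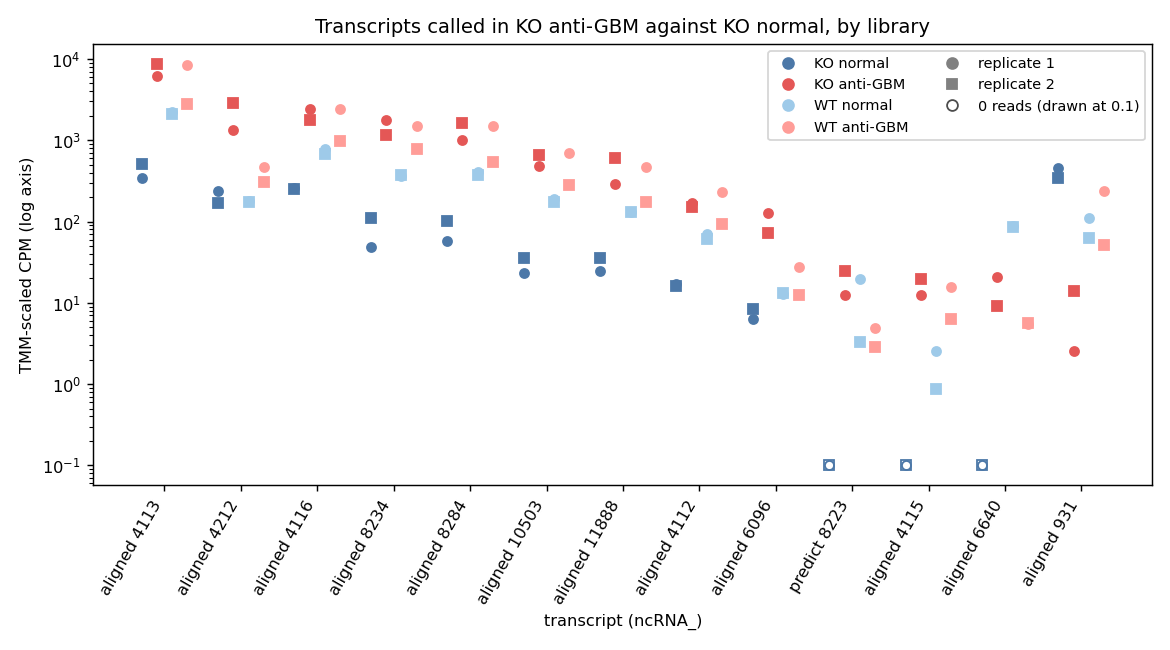
TMM-scaled CPM (log axis) of the 13 called transcripts in the KO normal, KO anti-GBM, WT normal and WT anti-GBM libraries, with circles for replicate 1 and squares for replicate 2 and open symbols for 0 reads. For 11 of the 12 transcripts that rose, the KO normal mean was the lowest of the 6 groups of the series. Choosing transcripts for a rise over KO normal favours that rank, and ncRNA_aligned_931 shows the opposite order of the KO groups.

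Another pair rose in KO from levels in KO normal that were closer to WT normal. ncRNA_aligned_4212 (7224 bases, cDNA AK085897) stood at 1333 and 2873 CPM with anti-GBM and 238 and 171 CPM in normal KO kidney, against 470 and 306 CPM and 178 and 173 CPM in WT. It rose by 3.36 ± 0.53 on the log2 scale (SE; adjusted p = 0.0070), and was not called without KO anti-GBM 2, KO normal 1 or KO normal 2, each left out in turn. ncRNA_aligned_6096 (2643 bases, a mouse lncRNA entry) stood at 126 and 72.1 CPM against 6.29 and 8.40 CPM, a log2 fold change of 3.75 ± 0.61 (adjusted p = 0.00828). In WT it stood at 27.8 and 12.6 CPM with anti-GBM and 12.8 and 13.2 CPM in normal kidney, so the WT groups overlapped. Leaving out KO anti-GBM 1, KO normal 1 or KO normal 2 ended its call.

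ncRNA_aligned_931 (626 bases, matched to M25175) fell from 456 and 346 CPM in KO normal to 2.58 and 13.8 CPM in KO anti-GBM, a log2 fold change of -5.60 ± 0.82 (SE; adjusted p = 0.00961). In WT it stood at 235 and 51.5 CPM with anti-GBM and 111 and 63.3 CPM in normal kidney, where the groups overlapped. It was no longer called when KO anti-GBM 1, KO normal 1 or either KO UUO library was left out, nor with breadth of coverage in the model, where the fold change was -5.36 (adjusted p = 0.0773), nor with the 9 libraries of higher breadth, where it was -4.85 (adjusted p = 0.192). The next running number, ncRNA_aligned_932 (M25176), stood at 109 and 319 CPM against 5184 and 3346 CPM. Its log2 fold change of -4.32 ± 0.71 did not pass (adjusted p = 0.0664). The KO normal mean of ncRNA_aligned_932 was 5.39 times the WT normal mean and the highest of the 6 groups.

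The response itself was compared between genotypes as the KO change minus the WT change in the same fit. Of 24816 transcripts, 4 (0.0161%) differed at an adjusted p under 0.05. In all 4 the KO fold change was positive and the WT fold change negative. The difference for ncRNA_aligned_931 had the opposite sign, at -6.32 ± 1.04, and fell just short of the threshold (edgeR adjusted p = 0.0508). Before adjustment, p was under 0.05 for 692 with a higher (2.79%) and 1789 with a lower response in KO (7.21%). The split of calls turned on the scaling, with 6 higher to 7 lower under DESeq2 size factors and 3 higher to 29 lower under library size alone. The median difference in response over all transcripts was -0.713 on the log2 scale and moved to -0.846 and -1.51 under those scalings. The 4 transcripts were ncRNA_aligned_6640, ncRNA_predict_8223, ncRNA_aligned_5045 and ncRNA_aligned_6360.

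ncRNA_aligned_6640 (1892 bases, a mouse lncRNA entry) had 81 and 47 reads in KO anti-GBM (20.9 and 9.26 CPM) and 0 in both KO normal libraries, at least 46.8-fold higher against the floor (adjusted p = 0.000638). WT normal held 88.1 and 84.6 CPM and WT anti-GBM 5.49 and 5.67 CPM, a fall of 3.95 ± 0.69 on the log2 scale that was called too (adjusted p = 0.0399). The transcript was thus lowest in normal kidney of KO and highest in normal kidney of WT. Against the floor, the KO response exceeded the WT response by at least 9.50 on the log2 scale (adjusted p = 4.37e-05), and the call was kept in 12 of 12 fits that left out 1 library, with a highest adjusted p of 0.00495.

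ncRNA_predict_8223 (720 bases, no database match) had 48 and 126 reads in KO anti-GBM (12.4 and 24.8 CPM) and 0 in both KO normal libraries, at least 57.8-fold higher (adjusted p = 0.00961). WT levels were 4.88 and 2.83 CPM with anti-GBM and 19.9 and 3.25 CPM in normal kidney, where replicate 1 lay well above replicate 2. Against the floor, the responses differed by at least 7.44 on the log2 scale (adjusted p = 0.0403). Without WT normal 1 that bound was 5.61 and the call was lost. ncRNA_aligned_5045 (2298 bases, cDNA AK039219) stood at 172 and 478 CPM against 31.5 and 93.3 CPM in KO, and at 24.5 and 48.2 CPM against 151 and 286 CPM in WT. Neither genotype's own change was called, at 2.38 ± 0.60 in KO (adjusted p = 0.306) and -2.59 ± 0.60 in WT (adjusted p = 0.154). Their difference of 4.97 ± 0.85 was called (adjusted p = 0.0403). Of the fits that left out 1 library, 6 of 12 kept each of these calls, and that of ncRNA_aligned_5045 was also lost with library size alone (4.14, adjusted p = 0.0515).

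**Figure D3:**
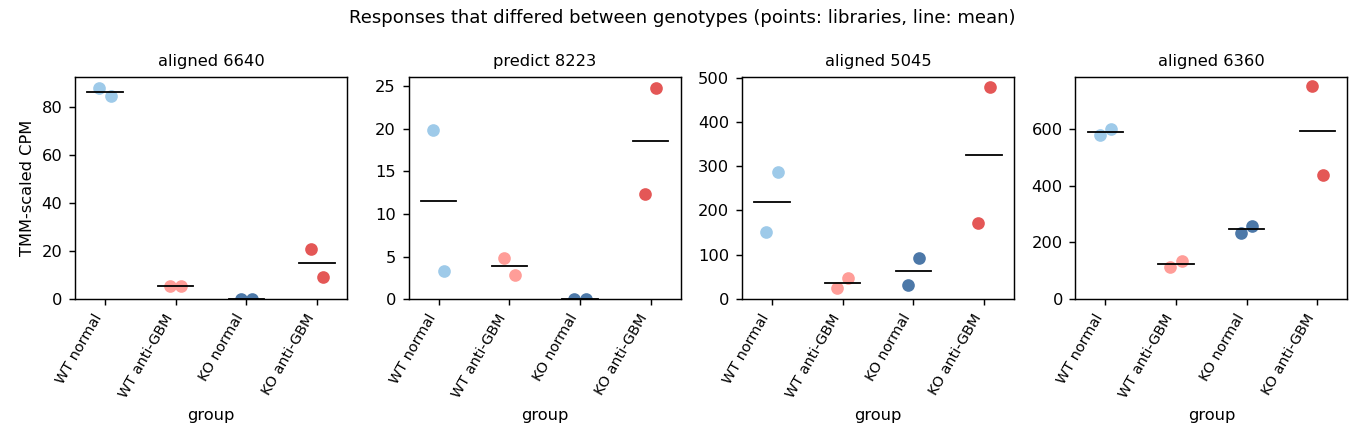
TMM-scaled CPM (linear axis from 0) of the 4 transcripts whose response differed between genotypes, with 1 point per library and a line at the mean of each group. In each panel the WT mean is lower with anti-GBM and the KO mean is higher, from 86.3 to 5.58 CPM in WT and from 0 to 15.1 CPM in KO for ncRNA_aligned_6640.

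ncRNA_aligned_6360 (4267 bases) was matched to the precursor of mir-135a-1. A long microRNA precursor is cut to a hairpin and then to mature strands, whose seed (bases 2 to 8) pairs with target mRNAs. The libraries were made from RNA longer than 150 bp, so its reads count the long transcript and not the mature microRNA. In the RefSeq table (GRCm38.p6) the hairpin lies on the + strand at chr9:106154124-106154213, within the spans of the protein-coding gene Glyctk (glycerate kinase) at chr9:106152859-106160158 and of the lncRNA gene D030055H07Rik at chr9:106147971-106160699. Glyctk is on the - strand and D030055H07Rik on the + strand in the annotation of NCBIM37. No strand setting is recorded for the counts, so reads of the 3 genes cannot be told apart. The sequences are shown because this is the one microRNA precursor among the 4 transcripts: the hairpin has both mature arms in capitals, and the mature strands of Mir135a-1 and of its paralog Mir135a-2 have the seed in capitals.
Mir135a-1 hairpin: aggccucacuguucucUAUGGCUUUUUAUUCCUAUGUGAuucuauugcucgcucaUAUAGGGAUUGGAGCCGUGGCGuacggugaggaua
mmu-miR-135a-5p: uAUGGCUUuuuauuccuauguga
mmu-miR-135a-1-3p: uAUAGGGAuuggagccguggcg
mmu-miR-135a-2-3p: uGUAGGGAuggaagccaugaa
The 5p strand and its seed are the same for both genes in that table, while the 3p strands carry different seeds.

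ncRNA_aligned_6360 stood at 751 and 438 CPM in KO anti-GBM and at 234 and 259 CPM in KO normal. In WT the order was the reverse, with 113 and 134 CPM with anti-GBM and 578 and 599 CPM in normal kidney. Neither pair of groups overlapped. The log2 fold changes were 1.27 ± 0.43 in KO (adjusted p = 0.523) and -2.26 ± 0.44 in WT (adjusted p = 0.0645), and their difference of 3.52 ± 0.61 was called (adjusted p = 0.0403). Reads covered 95.8% to 98.4% of the transcript in the 4 KO libraries. The call was kept in 5 of 12 fits that left out 1 library and lost with library size alone.

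Below the threshold, 16 matched transcripts of smallest unadjusted p averaging at least 10 CPM in groups without overlap were taken by rule, 8 higher and 8 lower. Small RNA genes were left out of this choice. Of the 8 higher, 5 had a negative fold change in WT, and of the 8 lower, 6 did. Of all 4366 tested transcripts averaging at least 10 CPM in the 4 KO libraries, 3260 did. Neither count stands out from that share. ncRNA_aligned_1920 (a mouse lncRNA entry) stood at 191 and 210 CPM with anti-GBM against 23.4 and 30.9 CPM in KO, a log2 fold change of 2.89 ± 0.63 (adjusted p = 0.149), and at 18.6 and 23.0 CPM against 63.1 and 43.6 CPM in WT. ncRNA_aligned_1710 (cDNA AK009789) had the same order, with 104 and 268 CPM against 38.8 and 38.8 CPM in KO and 14.0 and 28.3 CPM against 55.4 and 62.9 CPM in WT. Their differences in response, 4.25 ± 0.87 (adjusted p = 0.0912) and 3.74 ± 0.78 (adjusted p = 0.111), did not pass.

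ncRNA_aligned_1008 (2727 bases, cDNA AK008079) stood at 108 and 56.9 CPM against 10.8 and 0.908 CPM in KO, and at 127 and 33.2 CPM against 0.428 and 0.650 CPM in WT. Its rise was called in WT at 7.17 ± 1.08 on the log2 scale (adjusted p = 0.0399) and not in KO at 3.81 ± 0.87 (adjusted p = 0.3004), and the difference of the responses did not pass (adjusted p = 0.440). The values of nephritic KO and WT kidneys overlapped. ncRNA_aligned_6309 (7869 bases, cDNA AK163737), one of the more abundant of these transcripts, stood at 2970 and 2084 CPM against 789 and 801 CPM in KO and at 1115 and 884 CPM against 912 and 952 CPM in WT. The KO change was 1.67 ± 0.39 (adjusted p = 0.224).

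Among transcripts lower with anti-GBM, ncRNA_aligned_1002 (cDNA AK082171) stood at 5.67 and 5.71 CPM against 38.8 and 53.4 CPM in KO, and ncRNA_aligned_7335 (an EvoFold region, conserved by its predicted fold) at 18.3 and 18.5 CPM against 86.3 and 99.2 CPM. Both KO anti-GBM libraries gave nearly the same value for each. The KO log2 fold changes were -3.01 ± 0.62 (adjusted p = 0.0955) and -2.33 ± 0.52 (adjusted p = 0.195). Both were lower with anti-GBM in WT as well. There ncRNA_aligned_1002 stood at 22.6 and 31.6 CPM against 59.2 and 42.9 CPM, and ncRNA_aligned_7335 at 27.9 and 37.15 CPM against 76.5 and 80.2 CPM. ncRNA_aligned_64 (5739 bases, cDNA AK034199) stood at 102 and 190 CPM against 440 and 526 CPM in KO and at 84.6 and 116 CPM against 259 and 191.7 CPM in WT, so both genotypes had lower values with anti-GBM. Its changes were -1.72 ± 0.44 (adjusted p = 0.315) and -1.17 ± 0.43 (adjusted p = 0.564).

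**Figure D4:**
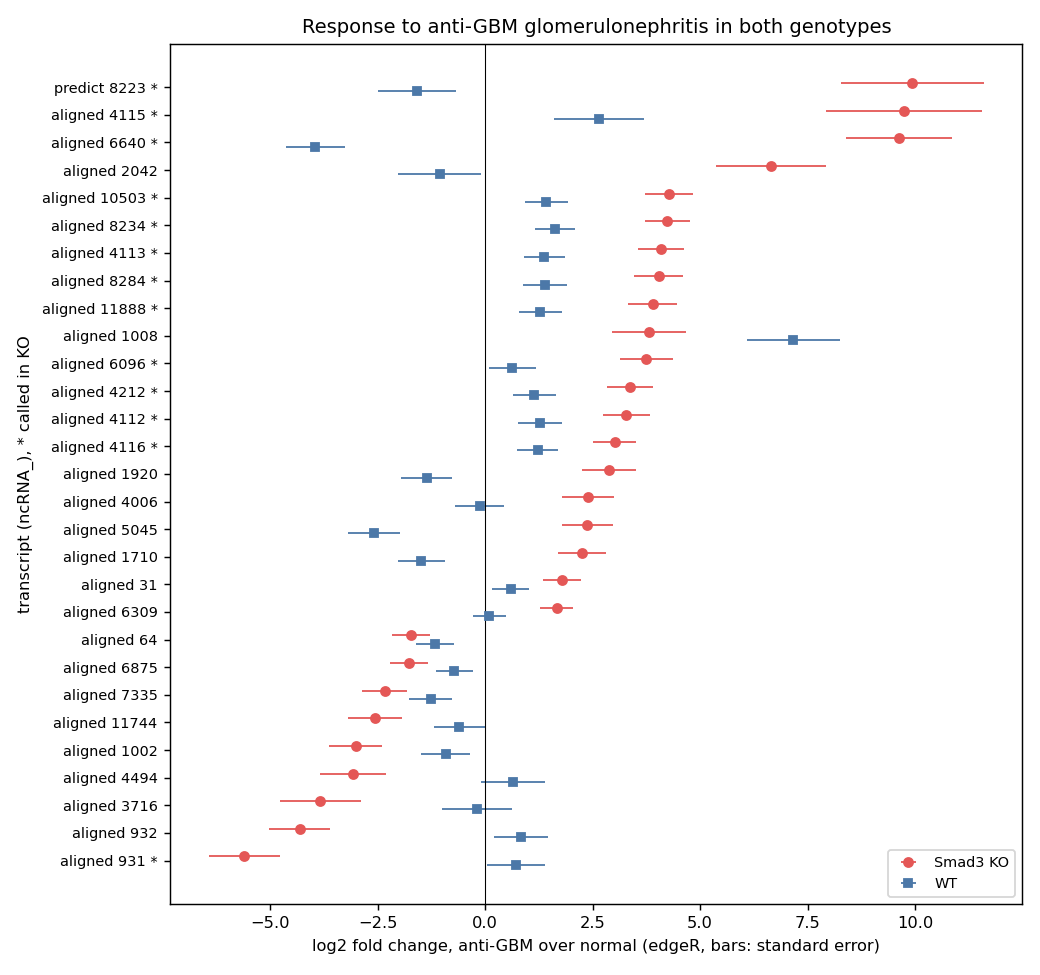
Log2 fold change of anti-GBM over normal (edgeR, bars are the standard error) in Smad3 KO (circles) and WT (squares) for the 13 called transcripts, marked with an asterisk, and the 16 next transcripts taken by rule. The fold changes of the 3 called transcripts with no KO normal read are fitted values that depend on the prior count, and for 5 of the 8 next higher transcripts the WT point lies below 0.

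The elements of mRNAs that bear on inflammation and scarring were few, and none was called. The transcript matched to the CAESAR element of Ctgf, a matrix-associated gene that TGF-β turns on, stood at 825 and 487 CPM with anti-GBM and 300 and 107 CPM in normal KO kidney (ncRNA_aligned_6524). The groups did not overlap, with a log2 fold change of 1.69 ± 0.48 (SE; adjusted p = 0.436). The transcript matched to the untranslated region of vimentin, which builds intermediate filaments in mesenchyme, stood at 439 and 883 CPM against 176 and 345 CPM (1.34 ± 0.50, adjusted p = 0.542; ncRNA_aligned_976). That of c-myc, a growth regulator, stood at 50.8 and 33.3 CPM against 25.6 and 12.7 CPM (ncRNA_aligned_683), and the groups did not overlap. None of these WT changes or differences between genotypes was called either.

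The transcript matched to the renin stability element, part of the mRNA of the enzyme that starts the angiotensin cascade, stood at 562 and 1238 CPM in KO anti-GBM and 131 and 522 CPM in KO normal (ncRNA_aligned_2307). In WT it stood at 5.13 and 20.6 CPM with anti-GBM and 220 and 144 CPM in normal kidney. The KO change of 1.46 ± 0.68 (adjusted p = 0.567) and the WT change of -3.82 ± 0.75 (adjusted p = 0.133) did not pass, nor did their difference of 5.29 ± 1.01 (adjusted p = 0.160). The element of Spi1, a transcription factor of myeloid cells, stood at 8.76 and 7.09 CPM against 0.609 and 16.4 CPM, and the groups overlapped (ncRNA_aligned_3717). The element of G-CSF, a neutrophil growth factor, had no read in any of the 4 KO libraries.

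Of 26 cell type markers listed, 5 had such an element (Spi1, G-CSF, Ctgf, vimentin and renin). Their summed level was 607 and 990 CPM in KO normal and 1835 and 2615 CPM in KO anti-GBM, so the groups did not overlap. Nearly all of that sum came from the Ctgf, vimentin and renin elements. The Spi1 element overlapped between the groups and the G-CSF element had no read in them, so the sum does not show a joint rise of the markers. The part of the sum in the calls above was not tested. With whole mRNAs not analysed here, the kidney and leukocyte markers that define the tissue could not be checked.

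Neat1, the RNA scaffold of nuclear paraspeckles, stood at 587 and 236 CPM in KO anti-GBM and 190 and 52.0 CPM in KO normal (ncRNA_aligned_3989, 21378 bases). In WT it stood at 543 and 1551 CPM against 81.5 and 160 CPM. Neither change was called, at 1.76 ± 0.74 in KO (adjusted p = 0.559) and 3.12 ± 0.78 in WT (adjusted p = 0.299), and both had groups that did not overlap. Xist, the RNA that coats the inactive X chromosome of female cells, stood at 93.3 and 993 CPM in KO anti-GBM and 24.2 and 1279 CPM in KO normal (ncRNA_aligned_7784). Replicate 2 was the higher one in both KO groups, and the groups overlapped. Xist stood at 0.855 and 21.7 CPM in WT normal and at 3.295 and 1.525 CPM in WT anti-GBM. With UUO it stood at 0 and 1.68 CPM in WT and at 0.426 and 1.00 CPM in KO. The labels used here give no sex for a library, and the part of sex in the results was not tested. H19, the imprinted RNA, had 0 and 5 reads in KO anti-GBM and none in KO normal.

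No microRNA precursor was called in KO by edgeR, where 2 of 25 tested were higher and 3 lower at p under 0.05 before adjustment (2.66% and 6.08% of all transcripts), and mir-135a-1 alone was called for the difference between genotypes. The lincRNA of Mir155 (chr16:84713268-84715487, NCBIM37, + strand; ncRNA_aligned_8024), the precursor of a microRNA of immune cells, stood at 0 and 1.58 CPM against 1.22 and 0.227 CPM, which is near the limit of the depth. The let-7c-2 precursor stood at 34.5 and 27.6 CPM against 28.2 and 31.3 CPM (ncRNA_aligned_5468), and the mir-200b precursor, of a family found in epithelium, at 14.7 and 16.5 CPM against 36.3 and 15.4 CPM (ncRNA_aligned_7267). Both overlapped between groups. The mir-707 precursor stood at 248 and 132 CPM against 67.0 and 96.0 CPM in KO and at 59.4 and 49.4 CPM against 125 and 108 CPM in WT (ncRNA_aligned_2663). That is the order of mir-135a-1, at 1.22 ± 0.48 in KO (adjusted p = 0.547). Among 14 precursors with a mean of 10 CPM or more, 8 had a positive and 6 a negative fold change in KO.

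The classes of database match were described by counts and medians and were not tested as sets. Over all transcripts tested the median log2 fold change was -0.372 in KO and 0.296 in WT. Predicted transcripts had a median of -0.620 in KO and 0.644 in WT, and 1170 of 16781 were lower in KO at an unadjusted p under 0.05 against 260 higher. Matched transcripts had a median of -0.041 in KO and -0.231 in WT, with 401 of 8035 higher and 340 lower. Without KO anti-GBM 1, the library of lowest breadth in this comparison, the KO medians were -0.518 for predicted and 0.047 for matched transcripts. Both medians moved further without KO anti-GBM 2, to -2.294 and -0.399, and the predicted median was -0.230 without KO normal 1, so its size depended on single libraries. With breadth as a covariate the KO medians were -0.316 for predicted and 0.151 for matched transcripts.

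Transcripts with reads in both KO normal libraries and none in either KO anti-GBM library numbered 1725, of which 1530 were predicted, among 24816 tested with 16781 predicted. None of the 1725 was called by edgeR, and 794 had an unadjusted p under 0.05. The reverse held for 138, of which 114 were predicted, 75 had an unadjusted p under 0.05 and 3 were called. With ncRNA_aligned_3554 and ncRNA_aligned_7824 left out and the 4 libraries thinned to 3175047 reads each, 17995 and 23659 transcripts were listed in the KO anti-GBM libraries and 29792 and 27338 in the KO normal libraries.

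Selenocysteine insertion elements, the folds in selenoprotein mRNAs that recode a stop codon, had a median of 0.142 in KO and -1.216 in WT over the 12 tested. Of 10 with a mean of 10 CPM or more, 5 had a positive and 5 a negative fold change in KO, whereas all 10 were negative in WT. For all 4366 tested transcripts above that level the medians were 0.04 and -0.44, and 3260 were negative in WT. None of the 12 was called by edgeR in KO or in the difference between genotypes, where 1 and 4 were higher and 0 lower before adjustment (p under 0.05). Over all transcripts 2.66% were higher in KO and 2.79% in the difference. ncRNA_aligned_6494 (2553 bases) stood at 1994 and 3862 CPM against 2068 and 2692 CPM in KO, with overlapping groups, and at 653 and 817 CPM against 2665 and 2042 CPM in WT.

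Transcripts matched to human lncRNA entries had a median of 0.129 in KO and -0.341 in WT over 140 tested, with 10 higher and 0 lower in KO at an unadjusted p under 0.05 by edgeR and none called, where the shares over all transcripts were 2.66% higher and 6.08% lower. EvoFold regions had a median of 0.125 in KO and -0.262 in WT over 1346, with 91 higher and 37 lower by the same measure. B1 and B2 repeats, short interspersed elements copied by RNA polymerase III, had medians of -0.267 and -0.119 over 58, with 3 higher and 1 lower, again beside 2.66% and 6.08% of all transcripts. Since repeats have many near-identical copies, the level of a single copy is uncertain. The snoRNA and scaRNA class, guides of RNA modification, had medians of -0.220 and -0.133 over 88.

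**Figure D5:**
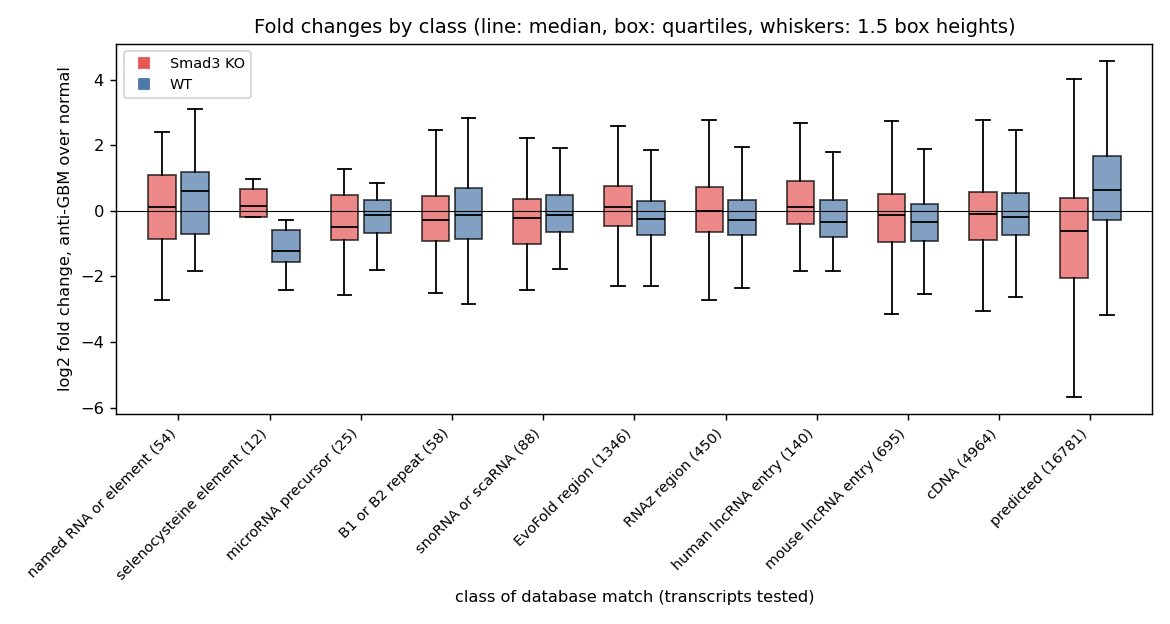
Log2 fold change of anti-GBM over normal in Smad3 KO (red) and WT (blue) by class of database match, with the number of transcripts tested in brackets, the median as a line, quartiles as the box and whiskers of 1.5 box heights; points beyond the whiskers are not drawn. The predicted transcripts have a median of -0.620 in KO and 0.644 in WT, and the selenocysteine elements 0.142 and -1.216.

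The UUO groups share the KO normal libraries with the comparison above, so their values are given side by side only. Of the 12 transcripts that rose with anti-GBM in KO, 11 had a positive fold change with UUO in KO, and the lowest adjusted p of the 13 was 0.225 there (edgeR). ncRNA_aligned_8234 stood at 335 and 271 CPM in KO UUO (log2 fold change 1.95, adjusted p = 0.235) and ncRNA_aligned_4113 at 1473 and 1529 CPM. Both lay between the KO normal and the KO anti-GBM libraries. ncRNA_aligned_4212 stood at 82.7 and 184 CPM in KO UUO, below or within its KO normal values of 238 and 171 CPM.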

How the data were processed

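Whole-kidney RNA of 12 libraries in 6 groups of 2 was analysed. Reads were aligned with Bowtie 0.12.7 and the genome build is mm9, per the submitters' processing notes; the steps of transcript assembly and read assignment are not given in the sources used here. Per the file headers, each table gives uniquely mapped reads (counts), the covered share of each transcript (percent), RPKM and mean depth (signal) for each transcript with a read, and a database match. The deposited RPKM values were used in an alternative only, and the deposited percent and signal columns only for coverage. Transcripts absent from a table counted as 0.

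From the counts, edgeR 4.0.16 in R 4.3.3 was run on all 12 libraries with TMM scaling, filterByExpr by group (24816 transcripts kept), 1 mean per group and a robust quasi-likelihood test, with Benjamini-Hochberg adjustment over all transcripts. Adjusted p-values are from this test. The 2 groups compared differed in spread, which was pooled over the 6 groups, so p-values rest on that pooled estimate and may be too small for the noisier group. Levels are TMM-scaled CPM. The script was tested on simulated data in which a transcript had the same spread in all libraries, so unequal spread was not tested. Breadth is a median over transcripts with 20 to 200 reads and more than 500 bases, for reads of 90 bases. Groups without a read got a floor of 3 counts over the group, for counting error only.

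The text describes every called transcript, every called difference between genotypes, fixed readouts, and part of the 8 next higher and 8 next lower matched transcripts. These 16 (mean of 10 CPM, no overlap of groups, small RNA genes left out) are all in the plot of KO and WT fold changes. Plotted only were ncRNA_aligned_2042, ncRNA_aligned_31, ncRNA_aligned_4006, ncRNA_aligned_11744, ncRNA_aligned_3716, ncRNA_aligned_6875 and ncRNA_aligned_4494. ncRNA_aligned_2042 had the largest KO log2 fold change of the 16, at 6.65 ± 1.27 (adjusted p = 0.254). It stood at 139 and 53.4 CPM in KO anti-GBM against 1.83 and 0 CPM in KO normal. Of the readouts, Malat1, Meg3, Gas5, Rmrp, Rpph1, 7SL and the precursors of mir-21, mir-29, mir-192 and mir-433 had no match by name. A separate RNA family (Rfam) label was not searched. That label was SRP_euk_arch, signal recognition particle RNA (7SL), for ncRNA_aligned_4115 and ncRNA_aligned_6360 among others. 7SK did not pass the filter. The members and lists were chosen with earlier results of these data known. Alternatives were DESeq2 1.42.0, its size factors, library size alone, other filters, limma 3.58.1 on log2(RPKM + pseudocount) with pseudocounts of 1 and 0.1, voom with quality weights, the compared groups alone, each library left out, the 9 libraries of higher breadth, breadth as a covariate, and leaving out ncRNA_aligned_3554 and ncRNA_aligned_7824.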

Additional observations from a re-analysis of the deposited data

Results flagged for a closer look

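For 4 transcripts the response to anti-GBM glomerulonephritis differed between genotypes by a test of the difference itself (edgeR). The fitted KO minus WT difference on the log2 scale was 13.58 for ncRNA_aligned_6640 and 11.52 for ncRNA_predict_8223, 2 transcripts with no read in KO normal, for which the fitted size depends on the prior count and the bounds of the report apply. It was 4.97 for ncRNA_aligned_5045 and 3.52 for ncRNA_aligned_6360, which matches the mir-135a-1 precursor.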

How the results depend on the processing

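The 13 calls in KO became 84 without a filter (51 higher, 33 lower), 113 with DESeq2 (57 higher, 56 lower), 20 with voom quality weights, 59 with the groups alone (42 and 17), 235 with the 9 libraries of higher breadth (122 and 113), 35 with breadth as covariate (29 and 6), and 0 with limma on log2(RPKM + 1) or on log2(RPKM + 0.1), where 392 and 449 were higher and 1002 and 2070 lower at an unadjusted p under 0.05. Leaving out 1 library gave 0 to 20 calls, the 0 when KO normal 1 was left out, against 6 for KO normal 2 and 20 for KO anti-GBM 2. Library size alone gave 13 higher and 5 lower, and DESeq2 size factors 13 and 2. The 4 differences between genotypes became 13 with DESeq2 size factors, 32 with library size alone, 78 without a filter, 11 with a minimum of 10 reads, 168 with DESeq2, 168 with voom quality weights, 0 in both limma fits, 102 with the groups alone, 1070 with the 9 libraries, 200 with breadth as covariate and 9 without ncRNA_aligned_3554 and ncRNA_aligned_7824. Leaving out 1 library gave 1 to 30 of them, with 1 without KO normal 1, WT anti-GBM 1 or WT normal 1. The causes were not tested. All 13 KO calls were lost in both limma fits. Of the 12 alternatives other than leaving out 1 library, these limma fits included, 8 or more kept each call. No paired analysis was possible because the labels used here link no samples across groups. They give no replicate numbers, and those used here follow the order of the samples in the series and only name samples. With 2 libraries a group, a lone library left after leaving out its replicate is assumed to vary like the other groups. The 9-library fit holds 1 KO anti-GBM library.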
